A study of Homo sapiens with 14 samples.

Results

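Oxidative phosphorylation is carried out by 5 protein complexes of the mitochondrial inner membrane, most of whose subunits are encoded in the nucleus. The nuclear genes for these subunits were followed here in HEK293 cells, a human embryonic kidney line, that carried HOXD9 or HOXD13. Members were chosen by gene symbol: NDUFA, NDUFB, NDUFC, NDUFS and NDUFV for complex I, SDH for complex II, UQCR and CYC1 for complex III, COX4 to COX8 for complex IV and ATP5 for complex V, with the NDUFAF assembly factors left out. Of 19775 genes with a probe set of their own, 83 matched the rule, and 71 of these were among the 10349 genes whose signal reached a log2 value of at least 5 on at least 3 arrays. The tested members comprised all 33 found for complex I, all 3 for complex II and all 7 for complex III, with 11 of 17 for complex IV and 17 of 18 for complex V. A further 8 symbols, NDUFC2, NDUFS5, NDUFS8, UQCRH and UQCRHL among them, lay only on probe sets shared by several genes and were not analysed here.

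Cells had been transfected with a HOXD9 construct bearing an HA tag or a HOXD13 construct bearing a V5 tag, or with the vector of the tag alone. The sample descriptions name selection with G418, which is toxic to cells lacking the plasmid's resistance marker, for all 14, vector cells included. Each HOX gene was represented by 4 arrays, one of the mixed transfected population (mix) and one each of clones a, b and c, and each tag by 3 arrays of cells given the vector alone. The clones were picked from the mixed population, so the 4 lines of a HOX gene are not fully independent, and every clone carries the history of a single cell. How the vector cultures were kept apart is not stated, although they are labelled as biological replicates, so the p-values here measure only the spread among the arrays at hand, some of which may be technical. Values are GCRMA log2 values, in which a difference of 1 is a doubling. The 7 arrays of the HA set (HA vector and HOXD9) and the 7 of the V5 set (V5 vector and HOXD13) had been normalized separately, so levels were compared only within a set, and no level of one gene was set against that of another because probe sets respond differently.

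Each transgene was high by at least 1 probe set in the lines labelled with it. One HOXD9 probe set averaged 2.73 in the HA vector and 6.99 in the HOXD9 lines, and the other 4.22 and 4.40. The 3 HOXD13 probe sets averaged 6.93, 3.31 and 8.94 in the V5 vector and 12.4, 8.36 and 9.92 in the HOXD13 lines. Of the fixed HEK293 markers, KRT8, KRT18, VIM and NEFL lay between 9.80 and 14.1 on every array, whereas NEFM (at most 2.42) and PAX2 (at most 4.89) did not reach the filter. All measured markers of blood, endothelium and striated muscle stayed at or below 2.66, and of 6 fibroblast markers COL1A1 alone passed the filter, at 5.30 to 8.12. The lines of a HOX gene spread more widely than the vectors: over the members the median SD was 0.027 in the HA vector (n = 3), 0.029 in the V5 vector (n = 3), 0.157 in the HOXD9 lines (n = 4) and 0.147 in the HOXD13 lines (n = 4), against 0.050, 0.051, 0.268 and 0.256 over all genes tested. In bulk RNA, a change in all cells of a culture cannot be told apart from a change in the share of cells that express a gene.

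Complex I takes electrons from NADH at the tip of an arm that reaches into the matrix and passes them through iron-sulfur clusters to ubiquinone, while its membrane arm pumps protons. Complex II feeds electrons from succinate into the same ubiquinone pool, complex III hands them to cytochrome c, complex IV reduces oxygen, and complex V, the ATP synthase, uses the resulting proton gradient to make ATP. Transcription of many nuclear subunit genes is known to depend on NRF1, on GABPA and other ETS factors, on YY1 and on SP1, whose sites lie close to the start of transcription.

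The promoters bear on whether the members share sequence features that the choice by symbol did not use. RefSeq promoters of GRCh38.p14, each 300 bases from 250 before to 50 after the start, were found for 62 of the 71 tested members. Both strands were searched for the core letters of NRF1 (CGCATGCG), the ETS family (CCGGAAG), YY1 (ATGGCGG), SP1 (GGGCGG) and posterior HOX proteins (CAATAAA). The NRF1 core was present in 16.1% of the members' promoters, against 2.19% of all 27305 promoters and 4.22% of those of the genes tested. The ETS core was present in 29.0%, against 10.7% and 20.8%, and the YY1 core in 27.4%, against 5.72% and 11.3%. The SP1 core stood in 62.9% of the members' promoters, between the 44.6% of all promoters and the 72.1% of the genes tested. The posterior HOX core was found in 3.23%, against 4.12% and 2.16%. A match describes letters in this window and is not evidence of a bound site. The promoters of 4 members that were lower in the HOXD13 lines are printed below to show 3 combinations of these cores, which are in capitals on either strand, from an NRF1 core alone in NDUFB4 (chr3:120596086-120596385, plus strand), through ETS, SP1 and YY1 cores in NDUFS1 (chr2:206159395-206159694, minus strand), to SP1 and YY1 cores in NDUFV2 (chr18:9102449-9102748, plus strand) and UQCRC1 (chr3:48609597-48609896, minus strand).
NDUFB4: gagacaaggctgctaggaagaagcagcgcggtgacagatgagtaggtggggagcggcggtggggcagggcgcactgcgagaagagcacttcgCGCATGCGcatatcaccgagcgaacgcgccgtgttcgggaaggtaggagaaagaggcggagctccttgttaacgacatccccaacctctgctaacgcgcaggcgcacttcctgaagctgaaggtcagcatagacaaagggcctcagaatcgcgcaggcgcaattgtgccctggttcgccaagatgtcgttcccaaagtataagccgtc
NDUFS1: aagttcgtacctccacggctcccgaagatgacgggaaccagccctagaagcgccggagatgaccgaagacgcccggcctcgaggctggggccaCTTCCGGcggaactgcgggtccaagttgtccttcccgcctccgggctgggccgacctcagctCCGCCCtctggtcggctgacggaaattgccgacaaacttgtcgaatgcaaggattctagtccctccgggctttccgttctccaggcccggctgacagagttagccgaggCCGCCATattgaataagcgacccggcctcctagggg
NDUFV2: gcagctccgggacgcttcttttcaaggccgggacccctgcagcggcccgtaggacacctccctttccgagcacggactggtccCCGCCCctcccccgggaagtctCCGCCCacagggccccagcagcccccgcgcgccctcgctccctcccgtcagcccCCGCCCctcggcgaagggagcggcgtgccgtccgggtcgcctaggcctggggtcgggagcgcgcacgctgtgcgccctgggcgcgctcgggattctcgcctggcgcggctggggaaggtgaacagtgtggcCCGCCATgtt
UQCRC1: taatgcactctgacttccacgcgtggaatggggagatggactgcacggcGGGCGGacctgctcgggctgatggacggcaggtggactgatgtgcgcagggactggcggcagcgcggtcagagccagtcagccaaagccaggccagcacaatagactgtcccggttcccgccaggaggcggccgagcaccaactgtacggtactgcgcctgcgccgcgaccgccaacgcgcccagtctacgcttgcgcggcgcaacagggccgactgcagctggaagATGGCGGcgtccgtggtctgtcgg

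The posterior HOX core occurred in none of these 4 promoters. In NDUFS1, NDUFV2 and UQCRC1 the YY1 core lay after the start of transcription, within the last 50 bases of the window.

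In the HOXD13 lines, 7 members fell relative to the V5 vector and none rose. Complex I supplied 5 of them, NDUFV2, NDUFA7, NDUFS1, NDUFB4 and NDUFB8, complex III supplied UQCRC1 and complex V supplied ATP5PD. Complex I holds 33 of the 71 tested members, and its 5 are 15.2% of those 33. The falls were modest, from 0.35 to 0.58 on the log2 scale. The 7 are 9.86% of the 71 members, beside 7.76% of all genes tested that were called lower and 2.88% called higher (limma, Benjamini-Hochberg adjusted over 10349 genes, called at an adjusted p under 0.05), so the share called was near the background. Without a threshold, 54 of the 71 members (76.1%) were below 0, beside 54.2% of all genes, with a median of −0.092 against −0.031 over all genes. Unadjusted p-values (limma) were under 0.05 for 18 of the members (25.4%), slightly under the 27.0% of all genes. All 4 HOXD13 lines lay below all 3 V5 vectors for 27 members, or 38.0%, beside a background of 20.3%, and above them for 1 member, or 1.41%, beside a background of 8.59%. The spread of the members within groups was smaller than that of all genes, as given above, and its part in these shares was not tested.

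**Figure D1:**
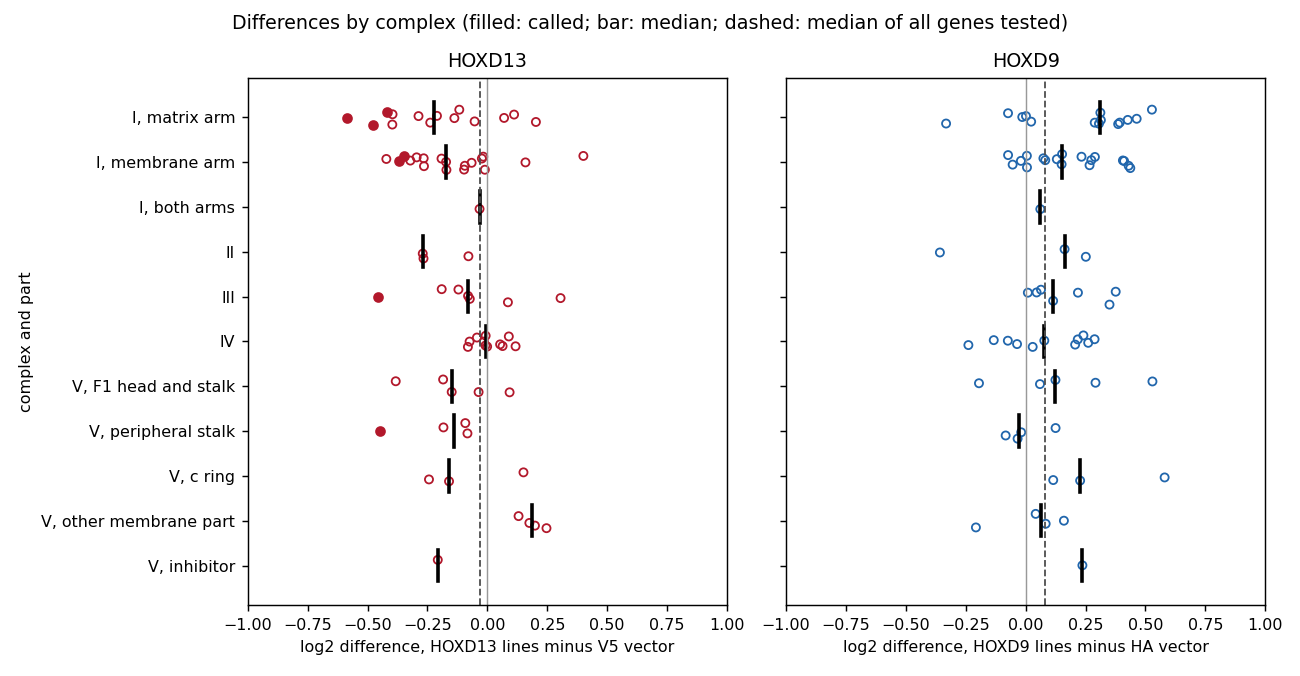
Each point is one tested member, placed by its log2 difference from the vector of the same tag (x axis) and by complex and structural part (y axis). HOXD13 is in the left panel and HOXD9 in the right, filled points are called at an adjusted p under 0.05, bars are medians and dashed lines are the medians of all genes tested (−0.031 and 0.082). The 7 called members are all in the HOXD13 panel, and complex IV there lies between −0.081 and 0.118.

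The matrix arm of complex I held 3 of the 7. NDUFV2, an iron-sulfur subunit next to the site where NADH is oxidised, read 10.67, 10.56 and 10.66 in the V5 vectors and 10.11 (mix), 9.80 (a), 9.92 (b) and 10.35 (c) in the HOXD13 lines. Every line was below every vector, with clone c the nearest to them. The difference was −0.58 ± 0.12 (SE, 4 lines against 3 vectors), a level 0.667 times that of the vector (limma adjusted p = 0.00986). NDUFS1, the large iron-sulfur subunit that carries electrons along the arm, read 10.40, 10.46 and 10.46 in the vectors against 10.07, 9.90, 9.99 and 10.13 in mix, a, b and c. The groups did not overlap, and the difference was −0.42 ± 0.09 (adjusted p = 0.0137, limma). NDUFA7, an accessory subunit of the same arm, read 11.14, 11.07 and 11.17 in the vectors and 10.70, 10.66, 10.69 and 10.56 in the lines. Here clone c was the lowest, and the difference was −0.48 ± 0.10 (limma adjusted p = 0.00991). In a fit of the 7 arrays of the V5 set alone the adjusted p of NDUFV2 was 0.0501 (limma), at the same difference.

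The membrane arm held NDUFB4 and NDUFB8, both accessory subunits of its proton-pumping part. NDUFB4 read 12.81, 12.82 and 12.80 in the V5 vectors and 12.47, 12.39, 12.41 and 12.49 in mix, a, b and c, a difference of −0.37 ± 0.08 (limma adjusted p = 0.0164). All 4 lines were lower and close together. NDUFB8, a subunit whose protein is often used as a marker of assembled complex I, read 12.28, 12.21 and 12.25 in the vectors and 11.86, 11.87, 11.87 and 12.01 in the lines. Its groups did not overlap and clone c again lay nearest the vectors, with a difference of −0.35 ± 0.09 (adjusted p = 0.0303, limma). This was the least stable of the 7 calls, kept under 13 of 26 other settings.

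Across complex I as a whole, 28 of 33 members (84.8%) were below 0, beside 54.2% of all genes, with a median of −0.172. For 17 of them (51.5%) all HOXD13 lines lay below all vectors, beside 20.3% of all genes. The medians of the arms were −0.224 for the 14 members of the matrix arm and −0.172 for the 18 of the membrane arm, and NDUFAB1, the acyl carrier protein that sits in both, was at −0.03. Members that came close to a call without reaching it included NDUFB5 (−0.42, adjusted p = 0.058 by limma), NDUFA10 (−0.32, adjusted p = 0.0625) and NDUFV1 (−0.40, adjusted p = 0.0786). NDUFV1 carries the flavin that accepts electrons from NADH, and NDUFS7, which holds the last iron-sulfur cluster before ubiquinone, was at −0.40 (adjusted p = 0.0955, limma). The highest values in the complex belonged to NDUFA3 (0.40) and NDUFA2 (0.20), with limma adjusted p of 0.41 for both.

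In complex II, the membrane anchors SDHC and SDHD were at −0.27 each and the flavoprotein SDHA at −0.08, none called. SDHC read 10.84, 10.89 and 10.79 in the V5 vectors and 10.55, 10.49, 10.54 and 10.71 in the HOXD13 lines, which did not overlap. For SDHD, clone c (12.14) lay above the vectors (11.97 to 12.04) while mix, a and b lay below them (11.53 to 11.73).

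Complex III had 1 call in 7 members. UQCRC1, a core subunit on the matrix side, read 11.14, 11.17 and 11.25 in the vectors and 10.78, 10.77, 10.88 and 10.49 in mix, a, b and c. All lines were lower, clone c the most, by a mean of −0.46 ± 0.12 (limma adjusted p = 0.0298, 0.728 times the vector). The second core subunit, UQCRC2, was at −0.08, CYC1, the cytochrome that passes electrons on to cytochrome c, at −0.19, and UQCRQ at −0.12. UQCR10, a small accessory subunit, had the highest value (0.31, adjusted p = 0.23 by limma): mix, a and b read 13.39 to 13.59 against at most 13.05 in the vectors, and clone c read 12.83.

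Complex IV had none of 11 members called by limma in the HOXD13 lines, nor any with an unadjusted p under 0.05. Of all genes, 7.76% were called lower, 2.88% were called higher and 27.0% had an unadjusted p under 0.05. Its members ran from −0.08 for COX5B to 0.12 for COX6A1 with a median of −0.007. None of them had all 4 lines on one side of the vectors, beside 20.3% of all genes with all lines below and 8.59% with all above. COX4I1, the ubiquitous isoform of the largest nuclear-encoded subunit, read 13.75, 13.77 and 13.79 in the vectors and 13.76, 13.71, 13.73 and 13.59 in the lines. COX7A2L, which joins complexes III and IV into supercomplexes, was at −0.04. The 6 isoforms typical of other tissues, COX4I2, COX6A2, COX6B2, COX7A1, COX7B2 and COX8C, stayed between 2.19 and 3.44 on all 14 arrays and were not tested.

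In complex V the single call was ATP5PD, subunit d of the peripheral stalk that keeps the catalytic head from turning. It read 12.43, 12.38 and 12.46 in the V5 vectors and 11.99, 11.84, 11.87 and 12.18 in mix, a, b and c, a difference of −0.45 ± 0.10 (limma adjusted p = 0.0138). All 4 lines were lower, with clone c nearest the vectors. ATP5F1C, the central-stalk subunit gamma, came close to a call at −0.38 (adjusted p = 0.0529, limma). The catalytic-head subunits ATP5F1A and ATP5F1B were at −0.18 and −0.04, and the c-ring genes ATP5MC2, ATP5MC3 and ATP5MC1 at −0.24, −0.16 and 0.15. ATP5IF1, the inhibitor of ATP hydrolysis, was at −0.21.

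The small membrane subunits of complex V stood on the other side of 0. ATP5ME, ATP5MG, ATP5MJ and ATP5MK, which belong to the part that lets the synthase form rows of dimers, were at 0.25, 0.20, 0.18 and 0.13, with a median of 0.187 and no call. ATP5ME read 12.38, 12.37 and 12.35 in the vectors against 12.64, 12.70, 12.66 and 12.46 in the lines and was the single member with all HOXD13 lines above all vectors (adjusted p = 0.0922, limma). ATP5MF, of the same part, stayed at or below 2.73 on its own probe set and was not tested. The remaining symbols that matched the rule without being tested were the pseudogenes COX6A1P1 and ATP5MC2P1 and the noncoding NDUFB2-AS1, NDUFV1-DT and NDUFV2-AS1, at 4.27 or below throughout.

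**Figure D2:**
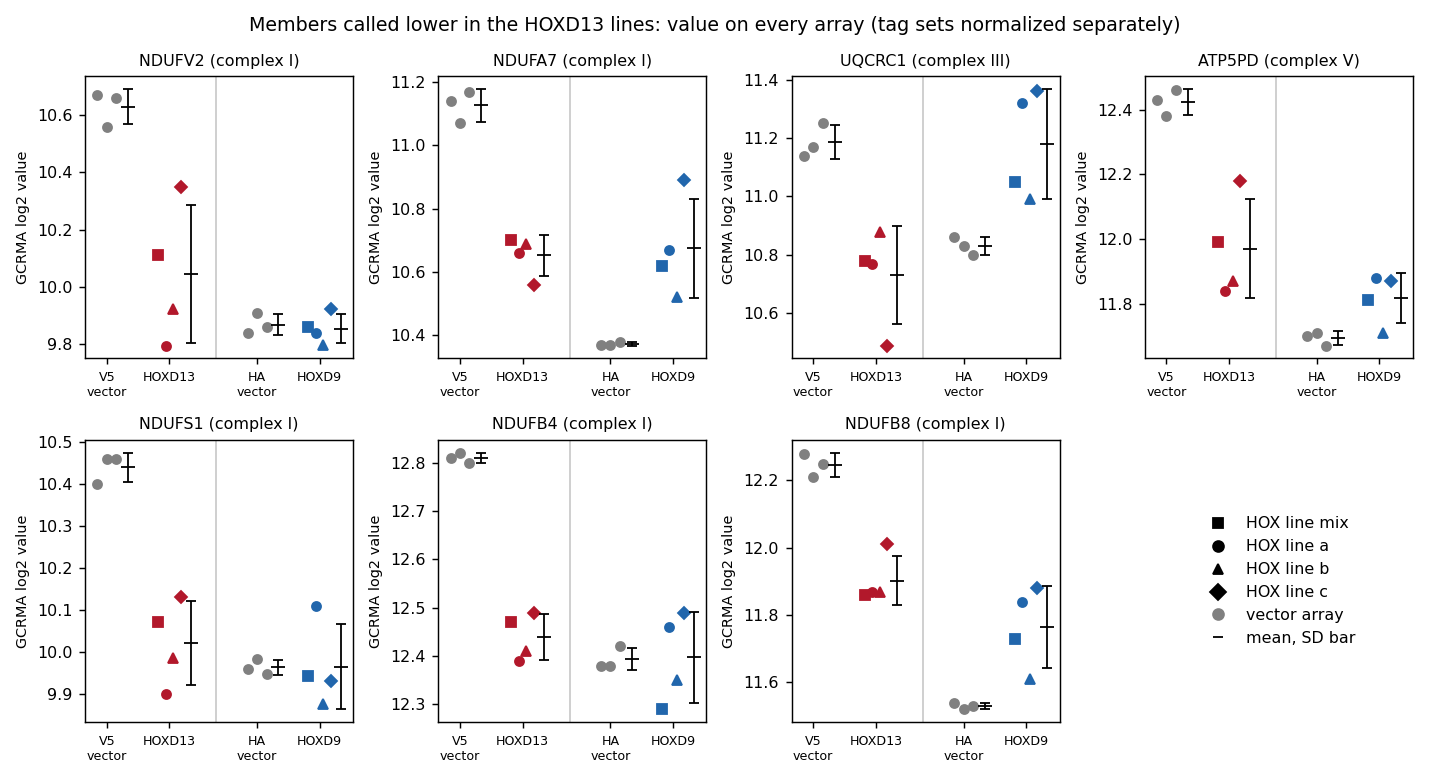
Value on every array (y axis, GCRMA log2) of the 7 members called lower in the HOXD13 lines, with vector arrays in grey, HOXD13 lines in red, HOXD9 lines in blue and a bar for the mean and SD of each group. Each HOXD13 point is below each V5 vector point. The tag sets were normalized separately, so the left and right parts of a panel are not comparable in level.

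How many members were called rested on single arrays, and the share of all genes called moved too. The count fell to 0 when V5 vector 1 or V5 vector 3 was left out and to 2 without V5 vector 2 or without HOXD13 clone a. In these 4 fits 2.85%, 2.37%, 2.70% and 3.73% of all genes were called lower, in that order, against 7.76% in the main fit. The member count rose to 14 without HOXD9 clone c, which enters through the shared estimate of the spread. There 12.3% of all genes were called lower and 5.08% higher. Without HOXD13 clone c the member count rose to 18. In that last fit all 7 calls were kept, NDUFA10, NDUFB5, NDUFS4 and ATP5F1C were also lower, and 7 members were called higher: ATP5ME, ATP5MG, ATP5MJ, NDUFA2, NDUFA3, NDUFV3 and UQCR10. That fit called 16.8% of all genes lower and 18.9% higher, beside 11 (lower) and 7 (higher, 9.86%) of the members.

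Clone c of HOXD13 departed from mix, a and b in opposite directions for different members. It lay below its 3 sister lines for 39 of 71 members (54.9%) and above them for 27 (38.0%), near the 49.5% and 39.0% of all genes. NDUFA3, a small membrane-arm subunit, read 10.69, 10.66 and 10.71 in the V5 vectors, 11.24, 11.36 and 11.69 in mix, a and b, and 10.07 in clone c, which was thus below the vectors while its sisters were above them. ATP5MC1 and NDUFV3 had the same order, with clone c 0.82 and 1.05 below the mean of its sisters. NDUFA5 went the other way, at 10.12, 9.59 and 9.56 in mix, a and b and 11.30 in clone c, beside 10.22, 10.47 and 10.15 in the vectors. COX6C shared that order, with clone c 0.80 above the mean of its sisters. For UQCRB clone c was 0.78 above them, with mix also above the vectors and a and b below. These gaps are descriptions of 1 clone and carry no test.

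**Figure D3:**
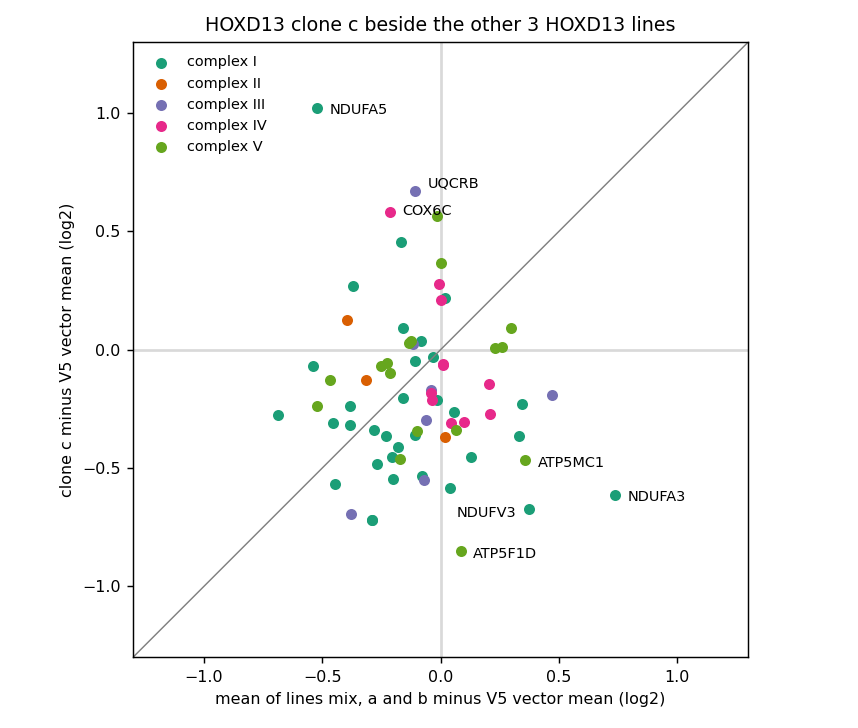
Difference from the V5 vector mean (log2) of HOXD13 clone c (y axis) against the mean of mix, a and b (x axis), with one point per tested member coloured by complex and a grey line where the values are equal. NDUFA3, NDUFV3, ATP5F1D and ATP5MC1 lie far below the line, and NDUFA5, UQCRB and COX6C far above it.

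Measures of RNA quality and gene length moved with the lines. The 3′ minus 5′ difference of the ACTB control probe sets, which widens as RNA shortens, was 2.19 to 2.26 in the V5 vectors, 2.13, 2.01 and 1.82 in HOXD13 mix, a and b, and 2.80 in clone c. In the HA set it was 2.29 to 2.37 in the vectors, 2.26, 2.35 and 2.10 in HOXD9 mix, b and c, and 1.70 in clone a. With this difference as a covariate, 19 members were called in the HOXD13 comparison, 17 lower and 2 higher (ATP5ME and UQCR10), and the 7 calls were kept, while 14.7% of all genes were called lower and 10.4% higher. The members are short genes, with a median span of 10460 bases against 32873 for all genes tested. Across all genes, the Spearman correlation of the shift with gene length was −0.152, −0.209 and −0.246 in HOXD13 mix, a and b and 0.266 in clone c, and across the 71 members it was −0.295, −0.416, −0.389 and 0.090; genes are not independent replicates, and members on one array share its RNA. With the length trend removed from each array, 14 members were called lower, the 7 among them, beside 8.55% of all genes. The part of RNA quality or length in the results was not otherwise tested.

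In the HOXD9 lines no member was called in either direction (limma), beside 1 of 10349 genes (0.00966%). Unadjusted p-values were under 0.05 for 25 of the 71 members (35.2%) and for 2429 genes in all (23.5%). Without HOXD9 clone b, 4 members (5.63%) and 4.27% of all genes were called higher. Without HOXD13 clone c, which enters through the shared spread, 13 members (18.3%) and 8.09% of all genes were called higher. The members tended upward: 55 of 71 were above 0, beside 6077 of all 10349 genes, with a median of 0.130 against 0.082 over all genes. For 35 members, or 49.3%, all 4 HOXD9 lines lay above all 3 HA vectors, beside a background of 22.4%, and for no member did all lie below, beside a background of 14.1%. With the gene length trend removed the members' median was 0.018, under the 0.077 of all genes.

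Complex I had the highest median of the 5 complexes in the HOXD9 lines (0.233), with 0.309 in the matrix arm and 0.151 in the membrane arm, followed by complex II (0.163), complexes III and V (0.115 each) and complex IV (0.078). ATP5MC1, 1 of 3 genes for the same c-ring protein, had the largest difference: it read 8.53, 8.50 and 8.55 in the HA vectors and 9.02, 9.16, 8.78 and 9.45 in mix, a, b and c, which is 0.58 ± 0.21 (SE, adjusted p = 0.158, limma). ATP5F1D, a central-stalk subunit, was at 0.53 and NDUFS7 at 0.53, with all their lines above all vectors. NDUFS7 read 9.77, 9.83 and 9.78 in the HA vectors and 10.23, 10.32, 10.12 and 10.62 in mix, a, b and c.

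At the low end stood SDHD (−0.36), NDUFA5 (−0.33), COX7B (−0.24), ATP5MK (−0.21) and ATP5F1E (−0.19), whose lines were far apart. SDHD read 11.37, 11.31 and 11.28 in the HA vectors and 11.22, 10.88, 11.29 and 10.46 in mix, a, b and c. NDUFA5 read 8.94, 8.85 and 8.92 in the vectors, 9.25 in clone b, and 7.72 and 8.31 in clones a and c, with mix 0.10 above the vector mean. The low values of both genes thus came from clones a and c, and without those clones NDUFA5 was at 0.22. Clones a and c were also the HOXD9 lines in which most genes differed from the mean of the vectors by more than 1 log2 unit, 619 and 1439 of 10349, whereas mix had 5 and clone b had 23.

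**Figure D4:**
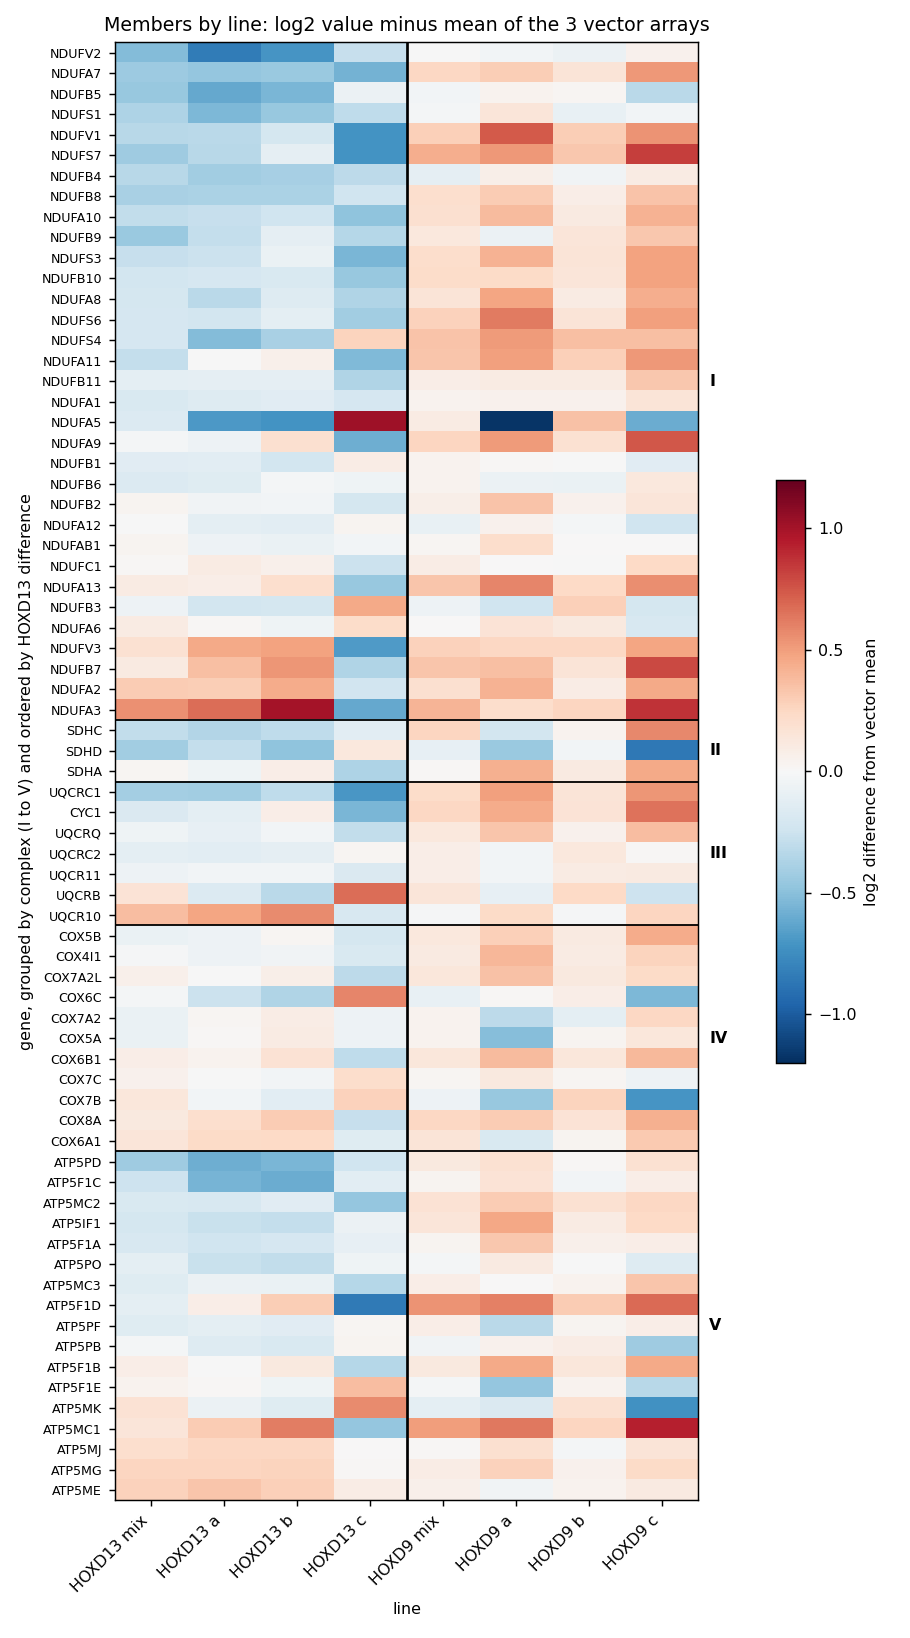
Difference of each HOX line from the mean of its 3 vector arrays (log2, colour) for all 71 tested members (rows, grouped by complex and ordered by the HOXD13 difference) and all 8 lines (columns). Complex I is mostly blue in the HOXD13 columns and mostly red in the HOXD9 columns, with clone c of HOXD13 opposite to its sisters for NDUFA3 and NDUFA5.

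By line, the members' medians in HOXD13 mix, a, b and c were −0.079, −0.118, −0.104 and −0.214, against −0.021, −0.038, −0.042 and −0.126 over all genes. In the same order the HOXD9 lines gave 0.096, 0.208, 0.098 and 0.247, against 0.042, 0.113, 0.004 and 0.197. The members' median was thus further from 0 than that of all genes in every line, in the direction of the group, while at most 1 of the 71 lay over 1 log2 unit from the vector mean in any line. For complex I the medians were −0.188, −0.206, −0.116 and −0.318 in the HOXD13 lines and 0.151, 0.227, 0.122 and 0.345 in the HOXD9 lines, in the order mix, a, b and c. For complex IV in the HOXD13 lines they were 0.047, −0.001, 0.074 and −0.145, so that clone c alone was far from 0.

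A call in one comparison and none in the other does not show that the effects differ, so the difference itself, HOXD13 effect minus HOXD9 effect, was tested. It compares changes against each tag's own vector, and HOX gene, tag and array set cannot be told apart in it. The difference was below 0 for 12 members and above 0 for none. The 12 are 16.9% of the members, beside 8.12% of all genes called below 0 and 1.52% called above. The median over the members was −0.262, against −0.040 over all genes.

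Of these 12, 9 belong to complex I, and 5 of those to the matrix arm. NDUFS7 had the largest difference, −0.92 ± 0.20 (adjusted p = 0.0156, limma), from −0.40 in the HOXD13 and 0.53 in the HOXD9 lines. Its HOXD13 lines read 9.94, 10.03, 10.26 and 9.64 against 10.39, 10.31 and 10.39 in the V5 vectors. NDUFV1 followed at −0.86 ± 0.19 (adjusted p = 0.0164, limma): it read 11.24, 11.28 and 11.28 in the V5 vectors and 10.93, 10.94, 11.06 and 10.55 in the HOXD13 lines, but 10.70, 10.66 and 10.70 in the HA vectors and 10.97, 11.42, 10.98 and 11.22 in the HOXD9 lines. Each factor's lines thus lay wholly on one side of their vectors, on opposite sides. NDUFA7 was at −0.78 ± 0.14 with the lowest adjusted p of the members (0.00573, limma), and its HOXD9 lines read 10.62, 10.67, 10.52 and 10.89 against 10.37, 10.37 and 10.38.

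The other matrix-arm members were NDUFS6, an accessory subunit that binds zinc, at −0.62, and NDUFS3, a core subunit near the ubiquinone site, at −0.60. The membrane arm contributed NDUFA10 (−0.60), NDUFB8 (−0.58), NDUFA8 (−0.55) and NDUFB10 (−0.53), with limma adjusted p from 0.0161 for NDUFB8 to 0.0417 for NDUFA8. UQCRC1 was the single member of complex III, at −0.81 ± 0.17 (adjusted p = 0.0122, limma). Its HOXD9 lines read 11.05, 11.32, 10.99 and 11.36 against 10.86, 10.83 and 10.80 in the HA vectors, all above them. In complex V the calls were ATP5PD (−0.58) and the c-ring gene ATP5MC2 (−0.47, adjusted p = 0.0446, limma), and complexes II and IV had none by limma on the chosen probe sets. All HOXD13 lines lay below all V5 vectors and all HOXD9 lines above all HA vectors for 16 of the 71 members (22.5%) and for 5.82% of all genes tested. The 12 are among these 16, but since they were picked by this difference nothing is read from that, and 56.9% of all genes called below 0 had the same pattern. The calls for NDUFS7 and UQCRC1 were kept under all 25 other settings tried, but the count of calls depended on single arrays: it was 3 to 5 without any 1 of the 6 vector arrays (3 without HA vector 2 or V5 vector 3), 7 without HOXD13 mix, 6 without HOXD13 clone a and 20 without HOXD13 clone c. The share of all genes called below 0 moved too. It was 3.35% to 3.82% without any 1 vector array, 5.26% without HOXD13 mix, 5.68% without clone a and 13.7% without clone c.

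Some members were read by more than one probe set, and not all of these gave the same value. Of 27 members with at least 2 passing probe sets, all of them had one sign in 15 members for HOXD13 and in 19 for HOXD9. For NDUFS1, all 4 probe sets were negative in the HOXD13 lines, from −0.57 to −0.42, and for NDUFB8 both were (−0.35 and −0.38). In contrast, a second probe set of NDUFA7 was at 0.31, with its mean value of 5.26 near the filter. Second probe sets were called where the chosen one was not for NDUFA6 (−0.76, adjusted p = 0.0148 by limma over all passing probe sets, against 0.07 for the chosen one), NDUFV3 (−0.72 against 0.11), UQCR11 (−0.84 against −0.07) and ATP5IF1 (0.79 against −0.21). On the difference of the effects, second probe sets were called below 0 for SDHC (−0.83 and −0.63, against −0.43 for the chosen one), NDUFV3 (−0.95) and UQCR11 (−1.38), and for NDUFB8 a second probe set was called as the chosen one was. When the mean of all probe sets of a gene was taken, 4 of the 7 HOXD13 calls and 6 of the 12 differences were kept. NDUFA7 was then at −0.08 and NDUFB4 at −0.03 for HOXD13. This mean took in probe sets that had not passed the filter, and NDUFB4 had 1 passing probe set of 2. A lost call under the mean is thus not always a disagreement between passing probe sets. Which transcripts these probe sets read was not examined. Of the 71 chosen probe sets, 42 carry a suffix that marks probes shared between transcripts or with other sequences.

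Genes around the respiratory chain were counted in the same fits. Of 49 tested assembly factors, which help build the complexes without being part of them, 5 were lower in the HOXD13 lines (10.2%) and 1 higher (2.04%), near the 7.76% and 2.88% of all genes, with a median of 0.045. SURF1, needed for complex IV, was at −0.58 ± 0.11 (adjusted p = 0.00773, limma), TIMMDC1, which helps assemble the membrane arm of complex I, at −0.60, COX19 at −0.67, SDHAF1, which helps insert iron-sulfur clusters into complex II, at −0.94, and OXA1L, which inserts proteins into the inner membrane, at −0.34. UQCC4, a complex III assembly factor, was higher, at 1.34 ± 0.35 (adjusted p = 0.0308, limma). Its shifts from the vector mean were 1.44, 1.96 and 1.97 in mix, a and b, but −0.006 in clone c. None of 15 regulators of mitochondrial biogenesis was called by limma (4 had an unadjusted p under 0.05), with a median of 0.142, and NRF1 was at 0.20, GABPA at 0.18, YY1 at −0.07 and PPARGC1A at −0.02.

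Enzymes that deliver electrons were counted in short lists, and no list was tested against the 7.76% of all genes called lower. In the citric acid cycle 3 of 11 (27.3%) were lower and none higher, with a median of −0.253: IDH3G (−0.63), SUCLG1 (−0.40) and SUCLG2 (−0.86). Of 6 electron carriers and feeders 2 (33.3%) were lower, with a median of −0.416. ETFB, a subunit of the flavoprotein that carries electrons from fatty acid oxidation, was at −0.86 ± 0.13 (adjusted p = 0.00251, limma), and SQOR, which oxidises sulfide, at −0.48. Glycolysis had 3 of 16 (18.8%) lower, ENO1 (−0.32), PFKM (−0.39) and PFKP (−0.35), with a median of −0.055. In the HOXD9 lines no gene of these lists was called by limma, although unadjusted p-values were under 0.05 for 7 of the assembly factors, 4 each of the regulators, the citric acid cycle and glycolysis, and 3 of the 6 carriers and feeders. These are 14.3%, 26.7%, 36.4% and 25.0% of the lists before the carriers, in that order, beside 23.5% of all genes. Their medians ran from −0.035 for the electron carriers and feeders to 0.187 for glycolysis. For ETFB the difference of the effects was −1.37 ± 0.19 (adjusted p = 0.00195, limma), with 0.51 in the HOXD9 lines.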

How the data were processed

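The authors deposited log2 values made with GCRMA for 54675 probe sets on 14 Affymetrix arrays; GCRMA comes from the submitters' processing notes, and the log2 scale from the range of the values, 1.83 to 15.5. The version of GCRMA is not given in the sources used. Sorted values were identical to within 0.00102 among the 7 arrays of the HA set and 0.00195 among the 7 of the V5 set, and the upper quartiles were 6.27 and 7.02, so the authors normalized the sets separately. Precision is limited by the number of arrays.

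Probe sets were named by the platform annotation of 2016 (41097 with 1 gene, 1801 with several, 11777 with none listed), with symbols updated through RefSeq (41043 matched). Each gene was read by the probe set of highest mean across all arrays and tested if that was at least 5 on at least 3 arrays. The means of the 4 groups were fitted to all 14 arrays in R 4.3.3 with limma 3.58.1, using lmFit and eBayes (10 residual and 3.02 prior degrees of freedom), two-sided, adjusted by Benjamini-Hochberg over 10349 genes and called under 0.05. The code was tested on simulated data. In R, data.table (version 1.17.8) read the tables; in Python 3.11.15, pandas 2.3.3 and matplotlib 3.10.9 served for summaries and plots.

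Members and gene lists were chosen with earlier results of these data known. Values were to be named for UQCRC1, NDUFS1 and NDUFB8, every called member, the 2 highest and 2 lowest members of each complex and contrast, and the 3 members with the highest mean; other members, the secondary probe sets and the genes set apart by clone c were chosen after their values were seen. Alternatives covered the fit, filter, probe set, centring, RNA quality, gene length and each array left out.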

Additional observations from a re-analysis of the deposited data

Results flagged for a closer look

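In 6 of 94 sets of 4 lines examined, 1 line stood apart from the other 3 by more than the critical value of Dixon's test. Chance gives about 1 in 20, so this count was near what chance gives. The sets include members named for being called or extreme in these data, and medians over the same members, so they are neither unselected nor independent. HOXD13 clone c was the line that stood apart in 5 of these 6 sets. It read 13.398 for ATP5MG against 13.641 to 13.650 in mix, a and b, 11.908 for NDUFB10 against 12.139 to 12.176, 12.012 for NDUFB8 against 11.859 to 11.869, and 12.117 for UQCRC2 against 11.967 to 11.988. Its median shift over complex II was −0.128, against −0.303 to −0.287 in its sisters. HOXD9 clone c had a median shift over complex IV of 0.247, against 0.103 to 0.120.

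The HOXD13 effect lay below the HOXD9 effect, by limma's test of the difference, for 12 members. In complex I these were NDUFS7 (−0.923), NDUFV1 (−0.860), NDUFA7 (−0.783), NDUFS6 (−0.625), NDUFS3 (−0.602), NDUFA10 (−0.596), NDUFB8 (−0.580), NDUFA8 (−0.554) and NDUFB10 (−0.533). In complexes III and V they were UQCRC1 (−0.807), ATP5PD (−0.575) and ATP5MC2 (−0.471).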

How the results depend on the processing

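No paired analysis was possible because the vectors are numbered and the HOX lines are named mix, a, b and c, so the groups compared share no numbers. The count of 7 members called in the HOXD13 comparison became 11 with array weights per group, 19 with the ACTB 3′ minus 5′ difference as a covariate, 14 with the gene length trend removed, 2 with clones only, and 20 without HOXD9 clones a and c, a setting chosen after seeing the data. In the same order 10.5%, 14.7%, 8.55%, 3.39% and 16.3% of all genes were called lower, against 7.76% in the main fit. With single arrays left out the member count ran from 0 to 18, and the share of all genes called lower from 2.37% to 16.8%. The HOXD9 count of 0 ran from 0 to 13, with 4 calls without HOXD9 clone b and 13 without HOXD13 clone c, all higher. In these 2 fits 4.27% and 8.09% of all genes were called higher. The HOXD9 median became 0.018 with the length trend removed. The 12 differences of effect became 22 with the ACTB covariate and 4 with clones only, beside 13.7% and 4.27% of all genes called below 0. They ran from 3 to 20 with single arrays left out, beside 3.35% to 13.7% of all genes. The causes were not tested. The other settings, among them no filter, a filter at 6 and centring on the median, left these counts within 1.5 times, but not always the same members. The mean of all probe sets, those below the filter included, shared 4 of the 7 HOXD13 calls and 6 of the 12 differences. A probe set free of the suffixes _s, _x and _a shared 5 and 11, but members without such a passing probe set kept their main one. All 5 shared HOXD13 calls were read by the same probe set as in the main fit, so this setting did not test them. The HOXD13 calls whose probe set changed, NDUFS1 and NDUFB8, were both lost. The difference of NDUFB8 was kept on its second probe set.

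Some values that were not called changed sign, also in members called in another comparison, and the cause was not tested. With a probe set free of the suffixes, HOXD13 values became 0.576 for ATP5F1C, 0.564 for COX4I1, −0.087 for ATP5MG and −0.090 for COX7C, HOXD9 values −0.403 for ATP5F1C, −0.392 for ATP5MG, −0.512 for NDUFS1, −0.094 for SDHC and −0.282 for UQCRB, and differences of effect 0.544 for COX4I1, −0.254 for COX7C and 0.026 for NDUFS1. With the mean of all probe sets, HOXD13 values became 0.111 for COX4I1, −0.224 for COX7B and 0.039 for UQCRC2, and HOXD9 values −0.073 for ATP5F1C and −0.206 for NDUFS1. With the length trend removed, COX7C became −0.046 for HOXD13, and ATP5ME −0.211, COX6A1 −0.144, COX7C −0.180, NDUFB4 −0.140 and UQCR10 −0.094 for HOXD9. Without HOXD9 clones a and c, HOXD9 values became 0.009 for ATP5F1E, 0.036 for ATP5MK, 0.103 for COX7B and 0.223 for NDUFA5, which was 0.117 with the ACTB covariate. With single arrays left out, ATP5F1D ran from −0.296 (without HOXD13 clone b) to 0.085 (without clone c) for HOXD13. No call of a named member changed sign under the settings tried.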
